A study of Rattus norvegicus with 20 samples.

Results

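Baseline gene expression in rat liver was described from the 5 arrays labelled control, of 20 in the series, each made from the liver of 1 rat. These were female Sprague Dawley rats that had eaten an unsupplemented mash diet (Harlan Teklad Rodent, 4% mash) for 24 days. No gene was altered, and their age is not given in the sources used here. The other 15 rats ate the same diet with BNF (5,6-benzoflavone) at 1650 mg per kg of diet, with D3T (3H-1,2-dithiole-3-thione) at 600 mg per kg or with OLT (oltipraz, the 4-methyl-5-pyrazinyl derivative of D3T) at 500 mg per kg, 5 rats to a diet, and they enter below only where the spread within each diet is set beside that of the controls. No diet is compared with another. Each of 14217 genes was represented by the probe set, a group of short probes for 1 transcript, that had the highest mean over the control arrays. Of these genes 5919 had a mean log2 value above 6, here called expressed. They are ranked by their mean and by their standard deviation (SD) over the 5 rats, which are called control rats 1 to 5 by their label numbers. Their spread joins biological and array differences, since each rat was measured on 1 array. No groups were compared and no p-value is given, because the values that rank the genes are the values described.

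The liver is made up mostly of hepatocytes, which secrete the proteins of blood plasma, make bile acids and cholesterol, turn ammonia into urea, store and release glucose, and oxidise foreign compounds with cytochrome P450 enzymes. Kupffer cells, the resident macrophages, lie in the sinusoids beside endothelial and stellate cells, and ducts are lined with cholangiocytes. Levels of many liver transcripts follow feeding, hormones, time of day and sex.

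The 3 genes taken to mark the tissue were all high. Apoa1, the main protein of high density lipoprotein, had log2 values of 14.005, 13.82, 14.28, 13.89 and 13.47 in control rats 1 to 5, with a mean of 13.89 ± 0.30 (SD, n = 5) and rank 72 of 14217. Cyp1a2, a P450 enzyme of drug oxidation, was at 13.88 ± 0.21 (rank 75), and Cat, the peroxisomal enzyme catalase, at 14.09 ± 0.16 (rank 59). All 11 measured hepatocyte markers had means above 12. Some genes known to differ by sex, most of them chosen after their values had been seen, stood at female-type levels. Cyp2c12, a P450 of female rat liver, had a mean of 14.40 and Sult2a6, a hydroxysteroid sulfotransferase, one of 14.82. The male-type P450 genes Cyp2c11, Cyp2c13, Cyp2a2 and Cyp3a2 had means of 2.37, 2.47, 3.32 and 4.205, all below the level called expressed. Of all 24 measured sex- and growth hormone-dependent genes 13 were expressed and 9 had means under 4.

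Genes of other cells were seen at lower levels. Of 16 measured macrophage and Kupffer cell markers 12 were expressed, led by the Kupffer cell lectin Clec4f at 10.29 ± 0.31 and the complement component C1qa at 9.63 ± 0.36. Of 23 lymphocyte and major histocompatibility complex (MHC) class II markers 6 were expressed, of 18 stellate cell and fibroblast markers 9, of 13 endothelial markers 5 and of 11 cholangiocyte markers 5. The 6 were class II genes, their chaperone Cd74 and a gene shared by leukocytes. No gene particular to T, B or natural killer cells was expressed. The 5 cholangiocyte markers included the keratin Krt18, which hepatocytes share, and 6 of the 11 had means under 4. None of 9 neutrophil markers was expressed, and each had a mean under 4. The haemoglobin gene Hbb was at 12.84 ± 0.55, with its lowest value of 12.09 in control rat 2 and its highest of 13.54 in control rat 3. In bulk tissue, fewer cells of a type and less RNA per cell cannot be told apart.

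The arrays resembled one another closely, but not equally. Over expressed genes the Pearson correlation between pairs of control arrays ran from 0.959 to 0.991. The first principal component held 49.8% of the variance and set control rat 1 at one end and control rat 3 at the other. Control rat 1 had the highest value in 2989 of 5919 expressed genes (50.5%), and control rat 3 the lowest in 2239 (37.8%). After quantile normalization, which gives all arrays the same distribution, these counts were 1998 (33.8%) and 1426 (24.1%). The part of array differences in the spread of single genes was not tested.

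Albumin was the highest gene of the control liver. Alb, the carrier protein that makes up most of plasma protein, had log2 values of 15.86, 16.21, 16.44, 16.03 and 16.20 in control rats 1 to 5, with a mean of 16.15 ± 0.21. Its lowest value, in control rat 1, was above the mean of every other gene. Its transcript start lies in the region shown here, which is printed because it belongs to the gene at the head of the ranking. The 300 bases, 250 before and 50 after the start, are from RefSeq (build GRCr8, chr14:17906930-17907229, minus strand), and capitals mark CCAAT read on either strand.
Alb promoter: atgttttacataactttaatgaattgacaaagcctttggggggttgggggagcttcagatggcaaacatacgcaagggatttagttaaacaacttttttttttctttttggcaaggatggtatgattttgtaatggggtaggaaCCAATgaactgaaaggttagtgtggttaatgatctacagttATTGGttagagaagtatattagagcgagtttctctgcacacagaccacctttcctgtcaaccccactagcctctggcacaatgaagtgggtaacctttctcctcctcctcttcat
The CCAAT motif begins at -106 and -65 relative to the start. It was found on either strand in 37.7% of 27457 RefSeq promoters of this length, in 10 of the 19 of the 25 highest genes that had one and in 11 of the 21 of the 25 most variable genes. The TATA motif TATAAA was found in 14.3% of all promoters, in 7 of those 19 and in 2 of those 21. Among promoters of expressed genes, from which both groups come, the shares were 39.1% for CCAAT and 6.87% for TATAAA. Such matches describe letters in these windows and are not known to be sites.

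**Figure D1:**
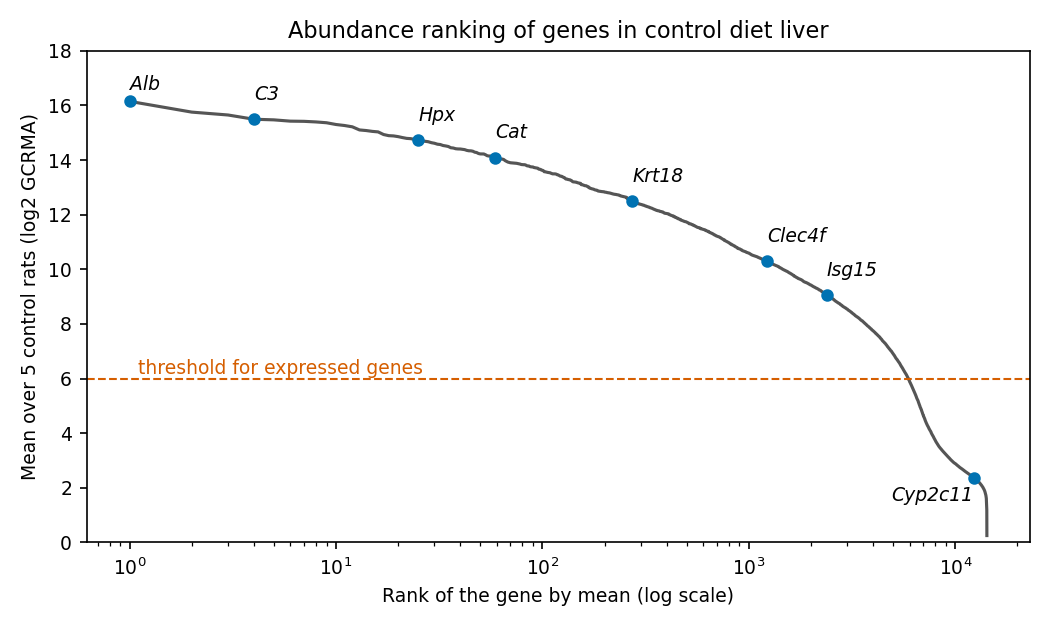
Mean log2 value (vertical axis) of 14217 genes over 5 control rats against their rank by that mean (horizontal axis, log scale), with the threshold of 6 drawn as a line. Named points run from Alb, first at 16.15, through Cat at 14.09, the bile duct and hepatocyte keratin Krt18 at 12.50, Clec4f at 10.29 and Isg15 at 9.07 to Cyp2c11, at 2.37, among the genes not expressed.

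Below albumin the ranking was led by genes of secreted proteins. The 25 highest genes spanned 1.42 log2 units, from Alb to Hpx, the haem-binding plasma protein hemopexin, at 14.72 ± 0.12. Of these 25 genes, 12 were on a list of secreted plasma proteins. Rup2 ranked next at 15.75 ± 0.13, before Selenop, the plasma selenium carrier, at 15.65 ± 0.11. C3, the central complement protein, followed at 15.49 ± 0.09, and its values of 15.37, 15.48, 15.63, 15.46 and 15.52 lay within 0.3 log2 units. Ahsg and Fetub, the fetuins, were at 15.42 ± 0.18 and 14.79 ± 0.13. Gc, the vitamin D carrier, was at 15.42 ± 0.10, and Ttr and Rbp4, which carry thyroxine and retinol together, were at 15.10 ± 0.25 and 14.88 ± 0.16. Clotting was represented by Fga, the fibrinogen alpha chain, at 15.36 ± 0.08, and the binding of haemoglobin by Hp, haptoglobin, at 15.22 ± 0.14. Apoc1 and Apoa2, apolipoproteins of plasma lipid particles, were at 15.30 ± 0.12 and 15.26 ± 0.22. Itih4, Ambp and Cp, which encode an inter-alpha-trypsin inhibitor chain, alpha-1-microglobulin with bikunin, and the copper protein ceruloplasmin, had means of 15.03, 14.93 and 14.89.

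The other genes of this group act inside the cell. Eef1a1, the elongation factor that brings aminoacyl-tRNA to the ribosome, was at 15.47 ± 0.17, and Fabp1, the fatty acid binding protein of liver, at 15.39 ± 0.20. The P450 genes Cyp2e1, Cyp2c6v1 and Cyp2c7 were at 15.08 ± 0.17, 15.05 ± 0.17 and 14.76 ± 0.24. COX1 and COX2, subunits of cytochrome oxidase encoded in the mitochondrial genome, were at 14.86 ± 0.27 and 14.78 ± 0.29. Sult2a6 had values of 15.26, 14.64, 14.63, 14.95 and 14.62, so that control rat 1 was highest for it. For most of the 25 the reverse held. Control rat 1 was lowest in 19 of the 25 genes and control rat 3 highest in 19, against 12.5% and 12.9% of expressed genes. After quantile normalization control rat 1 was lowest in 11 of the 25, against 26.6% of expressed genes.

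Most neighbours in the ranking were not separated. In 22 of the 24 steps between neighbours among the 25 highest, the difference of the means was smaller than the larger of both SDs. The exceptions were the steps from Alb to Rup2 and from Selenop to C3. Probe sets also differ in how they respond, so the order is one of array signal and not of transcript number. Summed without the logarithm, the 25 highest genes carried between 10.4% (control rat 1) and 13.3% (control rat 3) of the signal of all genes, and the 100 highest between 25.6% and 30.6%.

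**Figure D2:**
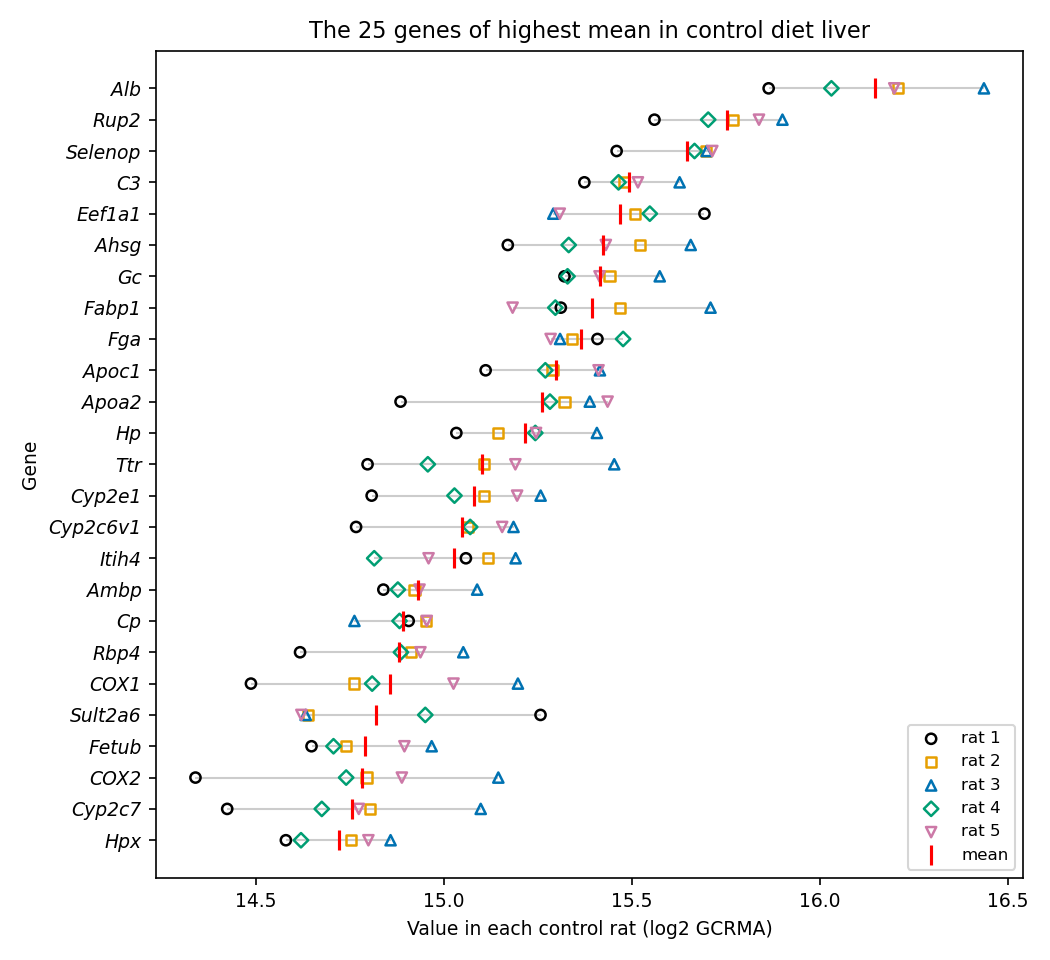
Log2 values (horizontal axis) of the 25 highest genes in each of the 5 control rats, one row per gene in the order of the mean, with the mean marked. All lie between 14.34 and 16.44, the points of neighbouring genes overlap, and control rat 1 is lowest in 19 of the 25 rows.

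The wider classes fell at different heights. Means above 10 were seen for 1458 genes (24.6% of those expressed), above 12 for 413 (6.98%), above 14 for 65 and above 15 for 16. All 27 expressed secreted plasma proteins, of 29 measured, had means above 12, with a median of 14.57. Of 25 measured acute phase and complement genes 23 were expressed, with a median of 13.15, and 12 of 13 apolipoproteins had means above 12, among them Apob, the scaffold of very low density lipoprotein. Ribosomal protein genes had a median of 12.69 over the 36 expressed of 40 measured, led by Rps29 at 14.44 ± 0.09. Of 38 measured P450 genes 29 were expressed and 19 had means above 12. Respiratory chain genes were expressed in 39 of 40 cases, with a median of 11.52 and with the ATP synthase subunit Atp5f1b at their head at 13.54 ± 0.18.

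Enzyme and chaperone classes of the hepatocyte followed. Among genes of amino acid breakdown and the urea cycle 35 of 36 were expressed, led by Hpd, of tyrosine breakdown, at 14.53 ± 0.13 and Ass1, of the urea cycle, at 14.52 ± 0.16. Hspa5 and Hsp90b1, chaperones of the endoplasmic reticulum where secreted proteins fold, were at 14.67 ± 0.19 and 14.41 ± 0.13. The glutathione transferases Mgst1 and Gsta1 were at 14.32 ± 0.25 and 14.22 ± 0.07, and 17 of 19 measured members of that class were expressed. All 22 redox enzymes were expressed, from Cat down to thioredoxin reductase 2. Bile acid genes were led by Baat, which joins bile acids to amino acids, at 13.71 ± 0.11 and by the uptake carrier Slco1b2 at 13.70 ± 0.07. Glucose genes were led by Pck1, the first enzyme of gluconeogenesis from oxaloacetate, at 13.40 ± 0.30 and Fbp1 at 12.94 ± 0.22.

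Genes of dividing cells stood at the other end. Of 25 measured cell cycle genes 2 were expressed, Ccnd1 (cyclin D1) at 9.40 ± 0.16 and Pcna, the sliding clamp of DNA polymerase, at 7.76 ± 0.21. The means of 22 others were under 4.

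Most expressed genes differed little between the 5 rats. The median SD was 0.233 log2 units, a factor of 1.18, and 3258 genes of the 5919 had an SD under 0.25. An SD of 0.5 or more was reached by 455 genes (7.69%) and an SD of 1 or more by 20 (0.338%). The count of 20 was 36 without control rat 2, 34 without control rat 4 and 31 without control rat 5. The median SD fell with the level. It was 0.265 for means between 6 and 8, 0.238 between 8 and 10, 0.196 between 10 and 12, 0.166 between 12 and 14, and 0.138 above 14. Of the 20 genes with an SD of 1 or more 11 had means between 6 and 8, and none had a mean above 12.

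**Figure D3:**
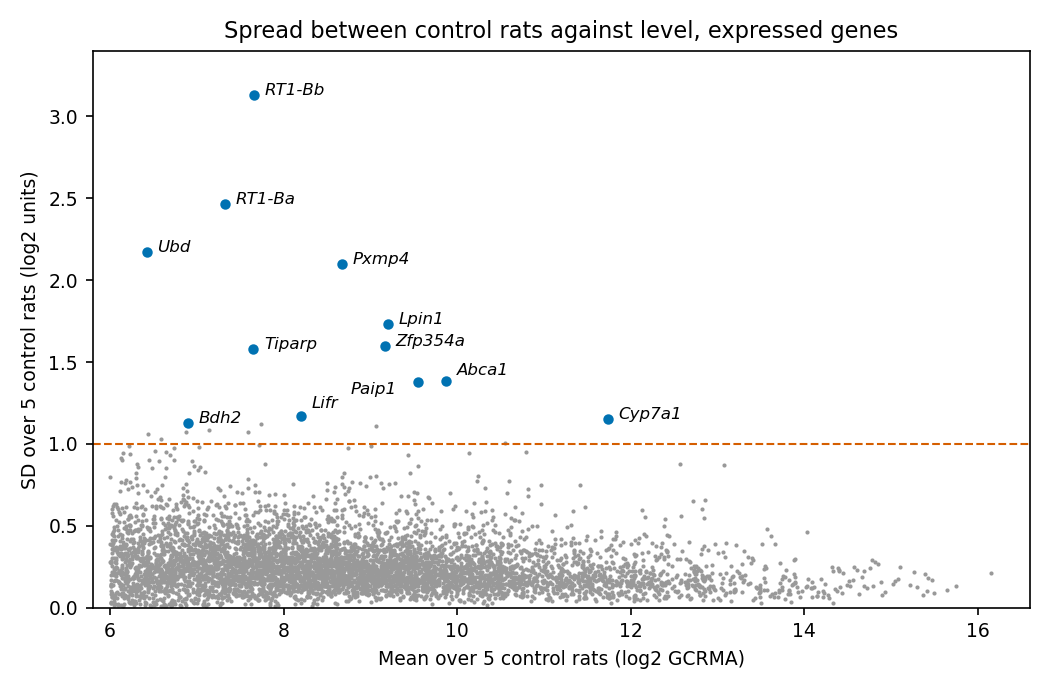
SD over 5 control rats (vertical axis, log2 units) of 5919 expressed genes against their mean log2 value (horizontal axis), with the most variable genes named. The median SD falls from 0.265 at means of 6 to 8 to 0.138 above 14, and RT1-Bb and RT1-Ba lie highest, at 3.13 and 2.46.

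The steadiest genes with a mean above 10 were Nol7, Shmt2, Apob, Rpl18 and Copa. Nol7, a nucleolar protein, had values of 10.34, 10.34, 10.37, 10.33 and 10.34, an SD of 0.0143. Shmt2, the mitochondrial serine hydroxymethyltransferase, was at 10.30 with an SD of 0.0278, and Copa, a subunit of the coat of Golgi vesicles, at 10.40 with one of 0.0309. Apob was at 14.34 with an SD of 0.0283, the smallest among the apolipoproteins, and the ribosomal protein gene Rpl18 at 11.77 with one of 0.0307. No rat stood out in all 5 of them.

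As classes, housekeeping and secretory genes had the smallest median SDs, but they also had high levels, where SDs are smaller. The median SD was 0.11 for ribosomal proteins, with a range of the members up to 0.231, and 0.15 for the respiratory chain, and no member of either reached 0.5. It was 0.14 for secreted plasma proteins, of which 1, Serpina6, the carrier of corticosteroids in plasma, reached 0.5, with values of 13.67, 13.33, 12.61, 11.99 and 12.71. Genes of the unfolded protein response had a median SD of 0.15, and none of 14 reached 0.5. None of 13 apolipoproteins and none of 15 periportal hepatocyte markers did either. Over all expressed genes 7.69% reached 0.5. The share was 3.92% for means between 10 and 12, 2.87% between 12 and 14 and 0% above 14. These counts are thus near the share of genes of like level. The median SD of all genes with means above 14 was 0.138, close to that of the secreted plasma proteins. Classes with more spread are described after the single genes.

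The most variable genes of the control liver were a pair of MHC class II genes. RT1-Bb and RT1-Ba encode the beta and the alpha chain of the rat class II molecule RT1.B, which presents peptides to helper T cells on macrophages, dendritic cells and B cells. RT1-Bb had log2 values of 9.50, 7.65, 9.74, 9.16 and 2.25 in control rats 1 to 5, an SD of 3.13, and RT1-Ba 8.77, 6.91, 9.49, 8.22 and 3.26, an SD of 2.46. Both were lowest in control rat 5 and next lowest in control rat 2, and highest in control rat 3. The values of control rat 5 lie at the background that GCRMA leaves, so no fold is given against them. Without control rat 5 the SDs were 0.94 and 1.09. Another RT1-Bb probe set, below the level called expressed, had 5.21, 5.32, 5.30, 5.35 and 5.32 and was not low in control rat 5.

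Other expressed class II genes did not fall to such a low value in control rat 5. RT1-Da, the alpha chain of the class II molecule RT1.D, had values of 9.61, 8.80, 10.27, 9.31 and 9.78, RT1-Db1, a beta chain, 9.34, 8.72, 10.33, 9.43 and 9.33, and Cd74, the chaperone of class II molecules, 10.36, 9.91, 11.12, 10.31 and 10.73. All 3 were lowest in control rat 2 and highest in control rat 3, and control rat 5 lay within 1 log2 unit of the median. Another RT1-Db1 probe set had 8.70, 7.14, 9.03, 8.73 and 7.36, with control rat 5 next to lowest. The class II genes RT1-DMa and RT1-DMb were below the level called expressed. RT1-DMa had 4.87, 4.01, 5.96, 4.83 and 3.44, lowest in control rat 5, and RT1-DMb 5.07, 4.56, 5.35, 4.84 and 4.82. The summed signal of the 23 measured lymphocyte and class II markers ran from 11.20 in control rat 2 to 12.69 in control rat 3. It was 11.79 in control rat 5, and 13 of the 23 had means under 4. That of the 16 macrophage markers ran from 12.17 in control rat 2 to 12.92 in control rat 3 and was 12.76 in control rat 5.

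In control rat 5 the probe sets that represent RT1-Ba and RT1-Bb were low and that of RT1-Da was not. Another probe set of RT1-Ba, described below, was high there. The promoters of these 3 genes in the reference are printed together, and their part in the levels was not tested. They are RefSeq sequences of build GRCr8 for RT1-Ba (chr20:4576807-4577106, plus strand), RT1-Bb (chr20:4604069-4604368, minus strand) and RT1-Da (chr20:4515165-4515464, plus strand). Capitals mark CCAAT on either strand.
RT1-Ba promoter: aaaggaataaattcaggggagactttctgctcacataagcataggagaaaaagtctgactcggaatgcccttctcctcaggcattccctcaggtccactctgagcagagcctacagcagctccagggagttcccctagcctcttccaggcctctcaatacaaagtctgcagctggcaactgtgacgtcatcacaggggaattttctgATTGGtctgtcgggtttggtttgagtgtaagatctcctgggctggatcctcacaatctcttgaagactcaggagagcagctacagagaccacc
RT1-Bb promoter: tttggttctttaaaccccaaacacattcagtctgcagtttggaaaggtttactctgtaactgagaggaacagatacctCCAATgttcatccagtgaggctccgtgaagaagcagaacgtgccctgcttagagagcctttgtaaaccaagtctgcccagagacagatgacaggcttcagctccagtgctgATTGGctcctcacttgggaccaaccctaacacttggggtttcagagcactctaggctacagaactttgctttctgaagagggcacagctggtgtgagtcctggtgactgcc
RT1-Da promoter: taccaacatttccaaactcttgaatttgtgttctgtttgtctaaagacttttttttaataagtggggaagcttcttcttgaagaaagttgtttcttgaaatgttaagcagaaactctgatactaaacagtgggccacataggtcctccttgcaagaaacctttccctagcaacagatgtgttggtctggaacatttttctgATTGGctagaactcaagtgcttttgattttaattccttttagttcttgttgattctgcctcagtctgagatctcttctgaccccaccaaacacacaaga
A CCAAT motif begins at -43 relative to the start in RT1-Ba, at -172 and -61 in RT1-Bb and at -49 in RT1-Da, so each of these 3 genes holds it close before its start.

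Another probe set named for RT1-Ba ran opposite to the first. Its values were 2.90, 7.24, 3.00, 3.03 and 9.95, so that it was highest in control rat 5, where the first was lowest, and at background in control rats 1, 3 and 4, where the first was high. Only control rat 2 had both probe sets above 6. Across all 20 rats the first probe set alone was high in 9 and the other alone in 5. Both were high in 6 rats and both were low in none, with no values between 4.02 and 6.91 for the first and between 3.68 and 7.24 for the other. The 2 probe sets thus gave different answers on the level of 1 gene. With all probe sets of the gene averaged the SD of RT1-Ba was 0.29. That average takes in a further 2 probe sets at background, with means of 1.63 and 1.47, which lower the SD. The part of sequence differences between rats in these values was not tested.

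**Figure D4:**
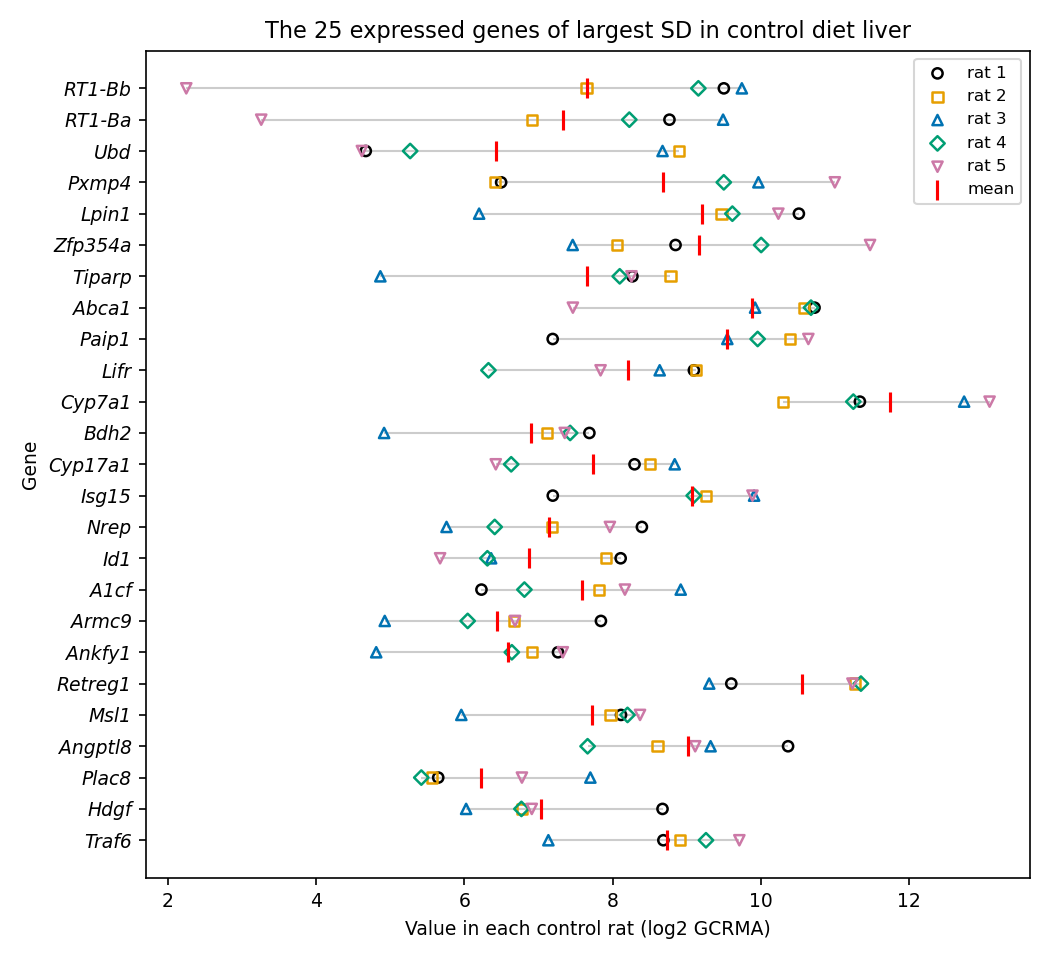
Log2 values (horizontal axis) of the 25 most variable expressed genes in each of the 5 control rats, one row per gene in the order of the SD. RT1-Bb and RT1-Ba fall to 2.25 and 3.26 in control rat 5, Lpin1 and Tiparp to 6.20 and 4.87 in control rat 3, and Ubd splits into 2 rats above 8 and 3 below 6.

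Ubd, a ubiquitin-like protein induced by interferon gamma and tumour necrosis factor, ranked next. Its values were 4.67, 8.90, 8.67, 5.27 and 4.62, with an SD of 2.17. Control rats 2 and 3 were high and the other 3 were below the level called expressed. The ubiquitin-like interferon product Isg15 had values of 7.19, 9.25, 9.91, 9.09 and 9.88, with an SD of 1.11, and was low in control rat 1 only. Ubd and Isg15 therefore did not rank the rats alike. Genes of immune cells and signalling were also among the 25. Plac8, expressed in myeloid and lymphoid cells, had values of 5.65, 5.56, 7.70, 5.42 and 6.78, high in control rats 3 and 5. Traf6, the ubiquitin ligase behind Toll-like and interleukin-1 receptors, had 8.68, 8.91, 7.13, 9.26 and 9.71, lowest in control rat 3.

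Genes of lipid and sterol metabolism made up a further group. Cyp7a1, which catalyses the rate-limiting step from cholesterol to bile acids, had values of 11.33, 10.29, 12.74, 11.24 and 13.08. Its SD of 1.15 was 6.58 times the median of the 200 genes nearest to it in level, and control rats 3 and 5 were high. The highest and the lowest rat differed 6.91-fold. Every other expressed member of the bile acid list had a smaller SD. Cyp8b1, which sets the share of cholic acid, had an SD of 0.40, Cyp27a1, of the acidic pathway, 0.13, and Slc10a1, the main uptake carrier, 0.10. Of the 18 expressed genes of that list 3 had an SD of 0.5 or more, against 7.69% of all expressed genes. Besides Cyp7a1 these were Akr1d1, a steroid reductase, at 12.40 ± 0.54 and Nr0b2, a repressor of Cyp7a1, at 7.08 ± 0.57.

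Lpin1, a phosphatidate phosphatase of triglyceride synthesis that also acts as a transcriptional coactivator, had values of 10.51, 9.47, 6.20, 9.61 and 10.23. Control rat 3 stood 3.27 log2 units below the next rat, and without it the SD fell from 1.73 to 0.50. Abca1, which exports cholesterol to apolipoprotein A1, had 10.72, 10.58, 9.92, 10.67 and 7.46. Here control rat 5 was the low one, and without it the SD was 0.37 in place of 1.38. Another Abca1 probe set was also lowest in control rat 5, at 7.58. The remaining ones were lowest in control rat 3, at 7.43 and 6.63, and had 7.86 and 7.48 in control rat 5. Angptl8, an inhibitor of lipoprotein lipase raised by feeding, had 10.37, 8.60, 9.32, 7.66 and 9.11, and its values were spread over the rats with none apart. Bdh2, a cytosolic hydroxybutyrate dehydrogenase, had 7.69, 7.12, 4.92, 7.43 and 7.35, low in control rat 3.

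Pxmp4, a peroxisomal membrane protein, split the rats. Its values were 6.50, 6.42, 9.96, 9.50 and 11.00, with an SD of 2.10, low in control rats 1 and 2 and high in the other 3. Cyp17a1, the P450 of androgen synthesis, had 8.30, 8.50, 8.84, 6.63 and 6.42, low in control rats 4 and 5. The splits of Pxmp4 and Cyp17a1 fell between different rats.

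Signalling and gene control formed another group. Zfp354a, a zinc finger transcription factor, had values of 8.85, 8.06, 7.46, 10.002 and 11.47, with an SD of 1.60 and no rat apart. Tiparp, an ADP-ribosyltransferase induced through the aryl hydrocarbon receptor, had 8.27, 8.78, 4.87, 8.10 and 8.25, and without control rat 3 its SD was 0.30 in place of 1.58. Its other expressed probe set did not follow, with 7.61, 7.57, 7.22, 7.42 and 6.98, lowest in control rat 5. Lifr, a receptor chain for leukaemia inhibitory factor, had 9.10, 9.12, 8.63, 6.33 and 7.84, lowest in control rat 4. Id1, an inhibitor of helix-loop-helix factors that responds to bone morphogenetic proteins, had 8.11, 7.91, 6.36, 6.31 and 5.67, higher in control rats 1 and 2 than in the others. Msl1, a part of a histone acetyltransferase complex, had 8.11, 7.97, 5.96, 8.20 and 8.37, low in control rat 3. Hdgf, a growth factor found in the nucleus, had 8.67, 6.78, 6.02, 6.77 and 6.91, high in control rat 1.

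The last group handles RNA and membranes or has roles less well known. A1cf, which helps edit the mRNA of Apob, had values of 6.23, 7.81, 8.92, 6.81 and 8.17. Paip1, which binds the poly(A) binding protein, had 7.19, 10.40, 9.55, 9.95 and 10.64, low in control rat 1. Its other probe set did not follow, with 8.96, 8.79, 8.42, 8.79 and 8.75, highest in control rat 1. Retreg1, a receptor for the breakdown of endoplasmic reticulum by autophagy, had 9.60, 11.26, 9.30, 11.35 and 11.23, with control rats 1 and 3 together at the low end. Armc9 ran from 4.93 to 7.84, Ankfy1, an endosomal protein, from 4.81 to 7.33, and Nrep from 5.76 to 8.39. All 3 were lowest in control rat 3.

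Among the 25 most variable genes control rat 3 was the rat farthest from the median in 10, control rat 5 in 6 and control rat 1 in 5. Over all expressed genes the shares were 22.8%, 16.1% and 41.3%, so control rat 1 was farthest less often here than over all genes, and control rat 3 more often. The SD threshold of 1 fell inside this group. Retreg1, Ankfy1 and Armc9 lay just above it at 1.01, 1.03 and 1.06, and Msl1, Angptl8 and Plac8 just below at 0.996, 0.991 and 0.987. At the threshold for expression, Tmem268, LOC100910424 and Iffo1 had means of 6.00, and Ccser2, Zfp664 and Dpp9 lay below it by less than 0.01. Of the 25 genes 9 had another expressed probe set. In 4 of these 9, Pxmp4, Lpin1, Lifr and Traf6, each other expressed probe set had an SD of 0.5 or more as well. For Abca1 1 of 3 others had, for Msl1 1 of 2, and for Tiparp, Paip1 and Armc9 none. An SD of that size does not mean that the same rat stood out. The rat farthest from the median was the same in at least 1 other probe set for 5 of the 9 genes, and for Traf6 in 1 of 2 others. The remaining 16 had no other expressed probe set.

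The spread of these genes was also measured on arrays that had no part in choosing them, and it was not as wide for all. Within the BNF diet 20 of the 25 were in the upper 10% of expressed genes by SD, within the D3T diet 14 and within the OLT diet 15. Ubd, Pxmp4, Zfp354a, Tiparp, Lifr, Retreg1, Plac8 and Traf6 were so in all 3 diets, 8 of the 25. RT1-Bb had SDs of 0.59, 2.73 and 0.24 within BNF, D3T and OLT, and RT1-Ba 0.68, 1.93 and 0.44. By these probe sets neither was in the upper 10% within OLT. The other RT1-Ba probe set, which is outside these counts, did vary within OLT, with values of 2.96, 7.88, 3.68, 2.93 and 8.83. Ubd had SDs of 2.23, 1.095 and 2.64 within BNF, D3T and OLT, and Pxmp4 2.41, 0.59 and 2.49. Cyp7a1 had SDs of 0.72, 1.07 and 0.57, and Lpin1 0.56, 0.37 and 0.35. Hdgf, with SDs of 0.22, 0.17 and 0.30, was among those that varied little on the other diets. Cyp17a1 was outside the upper 10% within D3T and OLT. Its values there ran from 2.37 to 3.25 and from 2.43 to 3.81, levels at which small SDs say little. The array labelled D3T 5 had a mean correlation of 0.959 with its own group and 0.974 with the OLT arrays, and that labelled OLT 1 had 0.953 and 0.960. Without these the counts were 14 within D3T and 17 within OLT.

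Genes of cholesterol synthesis and uptake moved together between the control rats. This pathway makes sterols from acetyl-CoA and is raised by the factor SREBP2 when cell cholesterol is low. Of 20 expressed members 16 were highest in control rat 5, against 26.8% of all expressed genes, and 10 were lowest in control rat 2, against 17.4%. The median deviation from the gene's own mean was 0.40 log2 units in control rat 5, 0.15 in control rat 3, -0.06 in control rat 1, -0.18 in control rat 4 and -0.26 in control rat 2. Idi1, which isomerises isopentenyl diphosphate, had values of 11.56, 11.69, 12.30, 12.33 and 12.94, and Mvd, the mevalonate diphosphate decarboxylase, 8.08, 7.60, 8.48, 7.57 and 8.83. The highest members were Fdps, of farnesyl diphosphate synthesis, at 12.86 ± 0.26 and Sc5d at 12.74 ± 0.25. Fdps was among the 3 that were highest in control rat 3. Of the 20 genes 4 had an SD of 0.5 or more, against 7.69% of all expressed genes. Under quantile normalization 13 of the 20 were highest in control rat 5, against 14.1% of expressed genes.

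The interferon response was low in control rat 1. Interferons raise a set of genes with antiviral products, and 10 of the 17 measured here were expressed. Of these 10 genes 7 were lowest in control rat 1, against 12.5% of expressed genes, and 8 were so after quantile normalization, against 26.6%. The median deviation was -0.54 log2 units in control rat 1, -0.07 in control rat 2, 0.31 in control rat 3, -0.04 in control rat 4 and 0.37 in control rat 5. Isg15 varied most of the list. Mx2, an antiviral GTPase, had values of 6.11, 6.67, 7.61, 6.48 and 5.89 and was lowest in control rat 5. Ifi27 led the list in level at 13.32 ± 0.20. Bst2, the membrane protein tetherin, ran the other way, highest in control rat 1 at 10.32. Macrophage markers, by their summed signal, stood at 12.48 in control rat 1, between 12.17 and 12.92 in the other rats, and their part in the result was not tested.

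**Figure D5:**
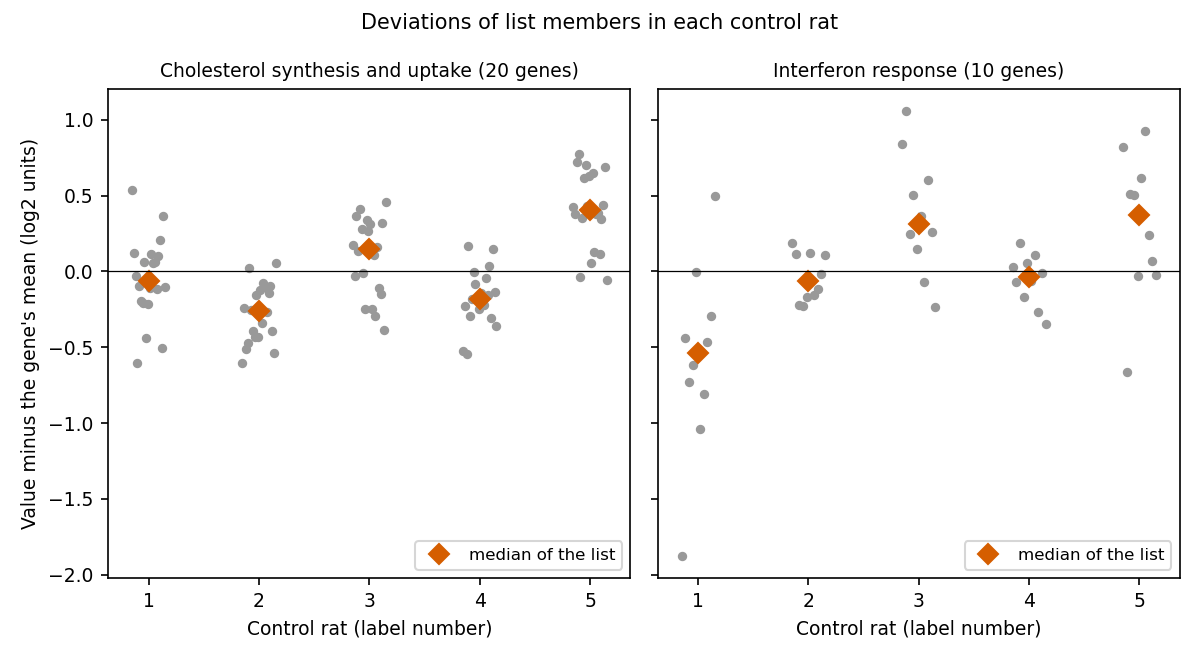
Deviation of each value from its gene's mean over the 5 control rats (vertical axis, log2 units) in control rats 1 to 5 (horizontal axis), for 20 expressed genes of cholesterol synthesis and uptake and 10 of the interferon response. Grey points are genes and diamonds the median of a list, which is highest in control rat 5 in both, at 0.40 and 0.37, and lowest in control rat 2 for the cholesterol genes and in control rat 1 for the interferon genes.

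Genes that respond to fasting, insulin and glucocorticoids had the widest spread of the metabolic classes. Their median SD was 0.49, and 8 of 17 expressed members had an SD of 0.5 or more, against 7.69% of all expressed genes. Igfbp1, a binding protein of insulin-like growth factors that insulin lowers, had values of 8.31, 9.07, 8.96, 10.39 and 10.42, high in control rats 4 and 5. Pck1 and Tat, enzymes of gluconeogenesis and tyrosine breakdown, were the highest members at 13.40 ± 0.30 and 12.84 ± 0.17. The median deviation of the list was 0.39 in control rat 5 and lay between -0.21 and 0.11 in the others. Fatty acid synthesis had a median SD of 0.34 with 4 of 20 members at 0.5 or more, against the same 7.69%. Among them were Lpin1 and Scd, the stearoyl-CoA desaturase. Scd had values of 11.70, 10.85, 9.57, 10.39 and 10.50, high in control rat 1 and low in control rat 3. Thrsp and Dgat2, at 12.77 ± 0.14 and 12.30 ± 0.14, were steadier and higher.

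Clock genes had a median SD of 0.32, and 3 of 16 expressed members had an SD of 0.5 or more, against 7.69% of all expressed genes. The most variable were Rora, an activator of the clock loop, with values of 8.08, 9.39, 8.33, 9.73 and 9.81, and Per1, a repressor of that loop that glucocorticoids also raise, with 5.59, 5.59, 5.97, 6.29 and 7.47. Control rat 5 was highest for both. The time of day at death is not given in the sources used here. Of 8 expressed immediate early genes 2 had an SD of 0.5 or more, against the same 7.69%. These were Zfp36 and Dusp1, at 10.58 ± 0.70 and 11.33 ± 0.59.

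Respiratory chain genes moved little but in one direction. Of 39 expressed members 25 were lowest in control rat 4, against 26.8% of expressed genes, with a median deviation of -0.13 log2 units there. After quantile normalization this count was 10 of 39, against 14% of expressed genes. Secreted plasma proteins were highest in control rat 3 in 20 of 27 cases, against 12.9%. After quantile normalization 8 of 27 were so, against 27.8% of expressed genes, which is near the share of all genes.

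Single members of other classes varied more than their class. Among heat shock genes Hspb1 and Hspa1a had SDs of 0.84 and 0.73, with control rat 1 lowest for both, while Hsp90ab1 and Hspe1 were at 13.95 ± 0.07 and 13.43 ± 0.06. Among metal and iron genes Mt1, a metallothionein, had values of 8.85, 9.73, 10.52, 8.86 and 9.74, and Hmox1, the haem oxygenase, 7.85, 7.53, 9.003, 7.15 and 8.005, both highest in control rat 3. Got1, an aspartate aminotransferase, was at 11.42 ± 0.75 and low in control rat 3 only, at 10.15. A1bg, of the sex-dependent genes, had values of 13.65, 13.50, 13.93, 11.98 and 12.29. It was lower in control rats 4 and 5, the rats that were low for Cyp17a1. Among drug and redox enzymes Nqo1 had 9.003, 8.18, 7.52, 8.78 and 8.74 and Gstm7 9.17, 8.17, 7.35, 8.26 and 8.75, and control rat 3 was lowest for both. Pfkfb1 and Gckr, of glucose handling, had SDs of 0.62 and 0.59, and C6, a complement protein, had one of 0.68.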

How the data were processed

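Liver RNA of 20 rats was hybridised to Affymetrix arrays, 1 rat to an array, and only the 5 control arrays were ranked. The deposited log2 values, 1 per probe set and array, were made by the authors with GCRMA per the submitters' processing notes, a method that removes background, scales arrays to one another and combines the probes of a set. Its version is not stated. Background correction compresses values under about 4, so small SDs there say little. The values run from 0.0915 to 16.44 in the control arrays and were used as given. No counts, detection calls or scan batches were at hand, and precision is limited by there being 5 arrays.

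Of 31042 probe sets, 20826 had 1 gene in the platform annotation, 436 several and 9780 none. Symbols of 20758 were updated by gene identifier through RefSeq and 68 kept the old name. Each of 14217 genes took its probe set with the highest mean, a choice made for 4525 genes with more than 1. Genes were named by rule: the 3 markers, the 25 highest and 25 most variable, the 5 steadiest with a mean above 10, 3 on each side of both thresholds, and in each list the 2 highest and 2 most variable. Genes outside that rule (RT1-Db1, RT1-DMa, RT1-DMb, Cyp2c11, Cyp2c12, Cyp2c13, Cyp2a2, Cyp3a2, Cyp8b1, Cyp27a1, Slc10a1, Akr1d1) were chosen after their values had been seen. The members and lists were chosen with earlier results of these data known. Summed signals of marker lists are log2 of the sum of unlogged values. Python 3.11.15, pandas 2.3.3 and numpy 2.4.6 were used, and the script that ranks by SD was checked on simulated data. Alternatives were median centring, quantile normalization, other thresholds, averaged probe sets, another measure of spread, removal of the first principal component and leaving out each array.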

Additional observations from a re-analysis of the deposited data

Results flagged for a closer look

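Of 130 genes named in the text, without RT1-DMa and RT1-DMb, 13 had 1 rat whose value lay apart from the other 4. The gap to the nearest other rat was more than 0.71 of the whole range. Chance flags about 1 in 20 groups, and 548 of 5919 expressed genes (9.26%) were flagged in this way. As 7 of the 13 are among the 25 genes chosen for a large SD, the count is a description. Control rat 3 was the low rat for 7 of the 13. It stood at 6.20 for Lpin1, against 9.47 in the next rat, at 4.87 for Tiparp, against 8.10, and at 4.92 for Bdh2, against 7.12. The other expressed Tiparp probe set had 7.22 in control rat 3 and was lowest in control rat 5. Control rat 3 was likewise low for Msl1 at 5.96, for Ankfy1 at 4.81, for LOC100910424 at 4.63 and, by a much smaller gap, for Cat at 13.82. Control rat 5 was low for RT1-Bb at 2.25, against 7.65 in the next rat, and for Abca1 at 7.46, against 9.92. Control rat 1 was low for Apoa2 at 14.89, Hspa5 at 14.34 and Selenop at 15.46, with gaps of less than 0.5 log2 units. Hspe1 was highest in control rat 4, at 13.53 against 13.43 in the next rat.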

How the results depend on the processing

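No paired analysis was possible because 1 group was described and no groups were compared. The count of expressed genes was 3672 with a threshold of 8 and 14217 with none, and lay between 5873 and 5937 with an array left out. The count of genes with an SD of 1 or more was 34 for means above 4, 9 above 8 and 40 without a threshold, and 455 for an SD of 0.5. It lay between 20 and 36 with an array left out, and was 36 without control rat 2, 34 without control rat 4 and 31 without control rat 5. The median SD was 0.118 without a threshold and between 0.180 and 0.246 with an array left out. The median correlation between arrays was 0.995 without a threshold. Of the 25 most variable genes, 15 were among the 25 for means above 4, 11 above 8, 13 without a threshold, 16 with averaged probe sets and 7 by the median absolute deviation. After removal of the first principal component 16 were, and with an array left out between 12 (without control rat 3) and 22. Pxmp4 and Zfp354a were kept under all 17 alternatives, and 14 of the 25 highest under all 13. Quantile normalization gave 1426 expressed genes lowest in control rat 3, 11 of the 25 highest lowest in control rat 1, 10 respiratory chain genes lowest in control rat 4 and 8 plasma proteins highest in control rat 3. Removal of the component, the SD of 0.5 and the counts by rat were alternatives chosen with the data in view. Thresholds change which genes enter, and the cause of the other changes was not tested. Of 276 recomputed means 7 moved by more than their SD, and of 248 recomputed SDs 23 moved by more than their standard error.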

Other observations

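Markers of the zones of the liver lobule were both well expressed. Of 16 measured pericentral hepatocyte markers, which lie near the outflowing vein, 13 were expressed with a median SD of 0.31, and of 16 periportal markers 15 were expressed with a median SD of 0.21. The median deviation of the pericentral list from each gene's mean was -0.22 log2 units in control rat 4 and 0.12 in control rat 5. Ahr, the aryl hydrocarbon receptor and a member of that list, had values of 6.47, 7.51, 7.46, 6.66 and 8.26 in control rats 1 to 5.

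Some probe sets gave levels that do not sit with the usual site of their gene. Myh1, named for a myosin heavy chain of skeletal muscle, was at 13.55 ± 0.26, and its 5 probe sets had means from 11.13 to 13.55. Of the 11 measured muscle markers 9 had means under 4. Dpt, a matrix protein of connective tissue, was at 12.24 ± 0.40 in 1 probe set and 11.15 ± 0.46 in another. Cpa1, a pancreatic protease, had values of 8.30, 7.84, 7.58, 7.29 and 6.86, while 12 of 16 pancreas markers had means under 4. Epcam, of cholangiocytes, had 7.27, 6.21, 5.77, 5.71 and 6.55.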
